A study of Mus musculus with 22 samples.

Results

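The AP-1 and BATF factors described here are the 9 genes Fos, Fosb, Fosl1, Fosl2, Jun, Junb, Jund, Batf and Batf3, matched by gene symbol in the deposited tables. They are 9 of 46603 genes in the count table, and all 9 were among the 21183 genes that passed a filter on low counts and were tested. RNA was sequenced in bulk from mouse CD8+ T cells in 22 libraries that form 8 groups. Naive cells came from spleen and lymph nodes by magnetic depletion of other cells. They were sequenced directly or after 24 or 48 h on plate-bound anti-CD3 (2 µg/ml) with soluble anti-CD28 (1 µg/ml), antibodies that trigger the T cell receptor and its co-receptor.

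Every group carries Cd4Cre, a Cre recombinase driven from Cd4 sequences that is active in developing T cells, so that CD8+ cells carry its effect too. The wt groups (genotype wtcre of the line Tcaim KI Cd4Cre; naive, 24 h and 48 h) and the KI groups (genotype hocre of the same line; naive, 24 h and 48 h) hold 3 mice each, 1 from each of experiments 1, 3 and 5. The KO groups (genotype hocre of the line Tcaim KO Cd4Cre; naive and 48 h) hold 2 mice, from experiments 1 and 5, and have no wt mice of their own line. Each mouse gave 1 library per time. No group was cultured without the antibodies, so changes with activation cannot be told apart from those with time in culture or since isolation. The mice of experiments 1 and 3 were male in wt and KI, those of experiment 5 were female, and both KO mice were female, so in experiment 1 KO and wt also differ in sex. Ages are not given in the sources used here.

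Total counts ran from 62551905 to 93489115 per library. Tcaim, the targeted gene, which encodes a mitochondrial inhibitor of T cell activation, lay at 138 to 260 CPM, counts scaled to a common library size, in the 9 KI libraries and at 8.38 to 15.2 CPM in the 9 wt libraries. In the libraries labelled KO it lay at 14.9 and 19.5 CPM naive and at 11.7 and 5.99 CPM at 48 h, which did not separate them from wt (edgeR adjusted p = 1 naive and 0.84 at 48 h). A count over the whole gene does not show whether a deleted part is missing, so the KO label could not be checked this way. The summed level of 8 CD8 T cell markers was 3026 to 6364 CPM in all libraries. Libraries that stood apart were the KO-labelled 48 h library of experiment 1, in several members, and the KO-labelled naive library of the same mouse, in which 8 B cell markers summed to 3325 CPM against 814 CPM in experiment 5, and 8 dendritic cell markers to 3193 against 354 CPM. In that mouse 4 CD4 T cell markers summed to 283 CPM naive and 211 CPM at 48 h, against 41.0 and 35.6 CPM in experiment 5 and at most 89.7 CPM in wt.

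AP-1 is a family of dimers of basic leucine zipper proteins. JUN proteins pair with each other or with FOS proteins, FOS proteins need a JUN partner, and the BATF proteins take the place of FOS in dimers with JUN that bind DNA together with the factor IRF4. In T cells, receptor and co-receptor signals raise AP-1 through the MAP kinases, AP-1 binds with NFAT at cytokine genes, and FOS and JUN genes are immediate early genes, induced and silenced again within hours. FOSL1 and FOSL2 lack the transactivation domain of FOS and FOSB, JUNB and JUND are weaker activators than JUN, and BATF and BATF3 support effector and memory CD8+ T cells.

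The start sites of the 4 genes that stood high in naive cells and low after activation, and of Batf, which did not fall, are shown for comparison. Each line gives the 140 bases before the RefSeq transcription start (GRCm38.p6, read 5′ to 3′ on the gene's strand), with TGACG, the core of the cAMP response element, and TATAAA in capitals.
Fos, chr12:85473750-85473889, forward strand: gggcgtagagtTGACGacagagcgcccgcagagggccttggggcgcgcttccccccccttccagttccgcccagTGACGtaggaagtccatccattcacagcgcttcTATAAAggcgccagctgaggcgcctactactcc
Fosb, chr7:19310046-19310185, reverse strand: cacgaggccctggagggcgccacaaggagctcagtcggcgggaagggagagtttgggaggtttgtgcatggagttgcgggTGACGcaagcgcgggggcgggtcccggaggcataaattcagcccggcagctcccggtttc
Jun, chr4:95052223-95052362, reverse strand: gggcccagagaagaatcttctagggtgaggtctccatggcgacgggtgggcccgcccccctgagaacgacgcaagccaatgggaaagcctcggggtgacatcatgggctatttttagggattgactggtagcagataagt
Junb, chr8:84978749-84978888, reverse strand: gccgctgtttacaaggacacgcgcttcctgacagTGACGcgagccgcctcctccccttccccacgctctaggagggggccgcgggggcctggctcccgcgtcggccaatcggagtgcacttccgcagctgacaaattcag
Batf, chr12:85686580-85686719, forward strand: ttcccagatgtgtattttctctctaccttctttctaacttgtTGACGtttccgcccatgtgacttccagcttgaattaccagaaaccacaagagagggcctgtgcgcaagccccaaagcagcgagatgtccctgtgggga

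Windows of 300 bases (250 before the start and 50 after) were in the RefSeq table for 8 of the 9 genes, all but Fosl1. TGACG, searched on both strands, was in 4 of these 8 windows (Fos, Fosb, Junb and Batf) and in 20.8% of all 32851 windows. Fos had it 129 and 66 bases before the start, Fosb 60, Junb 106 and Batf 98 bases before it. TATAAA was in the windows of Fos, 33 bases before the start, and of Junb, from base 1 of the RefSeq transcript on. It was in 13.6% of all windows. All distances are from RefSeq starts, which differ from the deposited gene coordinates for some members. There Junb starts at base 84978718 on the reverse strand, so its TATAAA lies upstream of that start. Batf starts there at base 85686669, inside the stretch printed for it. TGANTCA, the element that AP-1 itself binds, and the CArG box, which serum response factor binds, were in 0 of the 8 windows, against 7.81% and 1.63% of all windows. No matches of these motifs overlapped. Bases outside the windows were not searched, and where so few of all windows hold a motif, 0 of 8 does not show a lack of it. Jun, which fell, had no exact TGACG in its window, and Batf, which did not fall, had it. Near matches were not searched, and a part of these motifs in the courses was not tested.

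In freshly isolated naive cells, Junb, Fos, Jun and Jund were the most abundant members. Levels are compared between genes as FPKM, fragment counts scaled to gene length and library size, as the authors deposited them. In wt naive libraries Junb stood first at 510 ± 101 FPKM (SD, n = 3), above the range of every other member. Fos (169 ± 22.4), Jun (138 ± 20.6) and Jund (102 ± 14.2) followed, and the ranges of neighbours in this order overlapped. Batf (25.5 ± 1.58) and Fosb (20.9 ± 9.04) overlapped with each other and lay above Fosl2 (6.53 ± 4.39). Fosl1 (0.651 ± 0.0966) and Batf3 (0.250 ± 0.00573) were lowest and did not overlap. The same order held in the group means of KI naive and of KO-labelled naive libraries.

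**Figure D1:**
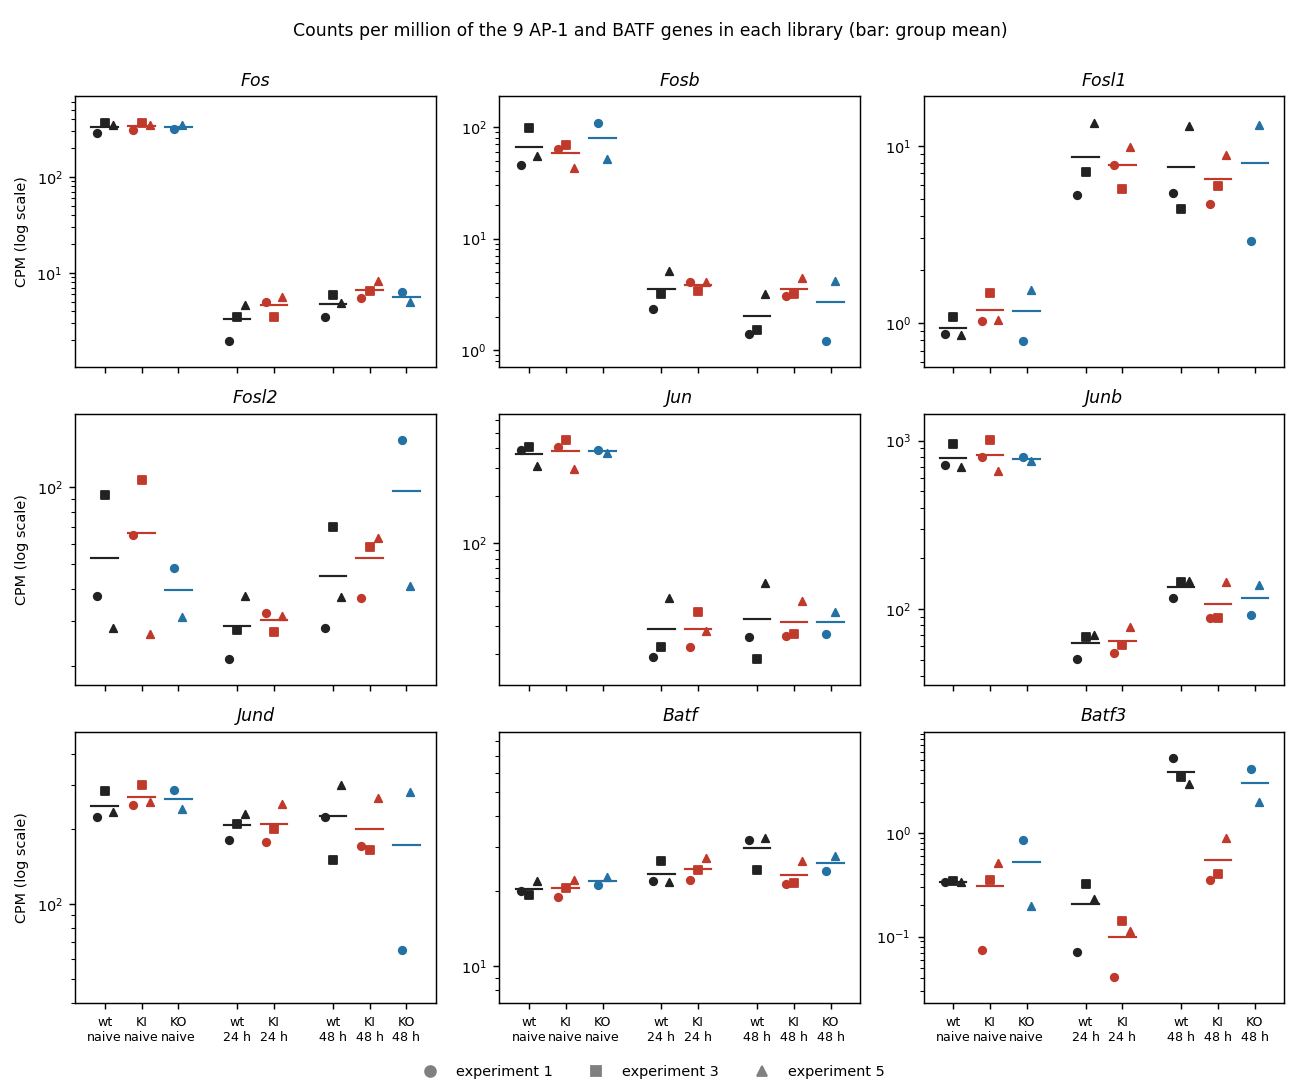
CPM of each of the 9 genes (vertical axis, log scale) in every library, by group (horizontal axis). Points are libraries, shaped by experiment, and bars are group means. Fos, Fosb, Jun and Junb lie lower in every activated library than in every naive one, and Fosl1 lies higher.

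Fos, the partner of JUN that gave AP-1 its best known dimer, showed the deepest fall. Its CPM, which are adjusted for library composition, were 285, 365 and 353 in wt naive libraries of experiments 1, 3 and 5. After 24 h they had dropped to 1.94, 3.46 and 4.55, and after 48 h they stood at 3.41, 5.86 and 4.87. The groups were far apart, and the 24 h and 48 h ranges overlapped. Fos fell 101-fold by 24 h (log2 change -6.65, SE 0.31, edgeR adjusted p = 4.18e-11) and was 71.0-fold below naive at 48 h (log2 change -6.15, SE 0.30, edgeR adjusted p = 4.42e-11). By p it ranked 8 among the 21183 genes tested at 24 h.

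Fosb, a close relative of Fos that also has a transactivation domain, was also high in naive cells and low after activation. In wt it was at 45.5, 97.5 and 54.7 CPM in naive cells, at 2.32, 3.19 and 5.11 CPM at 24 h and at 1.38, 1.51 and 3.20 CPM at 48 h. Naive and activated libraries did not overlap. The fall was 18.6-fold at 24 h (log2 change -4.22, SE 0.47, edgeR adjusted p = 8.98e-07) and 32.5-fold at 48 h (log2 change -5.02, SE 0.49, edgeR adjusted p = 1.13e-07).

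Jun, the partner that can bind DNA as a homodimer, was at 390, 407 and 309 CPM in wt naive libraries. It was at 19.1, 22.04 and 45.3 CPM at 24 h and at 25.5, 18.5 and 55.7 CPM at 48 h. Experiment 5 was the highest of the activated libraries at both times and still lay below every naive library. Jun fell 12.8-fold at 24 h (log2 change -3.68, SE 0.39, edgeR adjusted p = 5.01e-07) and stood 11.1-fold below naive at 48 h (log2 change -3.47, SE 0.39, edgeR adjusted p = 5.66e-07). In the GENCODE annotation of GRCm38 an exon of the antisense gene Junos overlaps Jun, a gene of 1 exon, on the opposite strand. Junos held 2756 counts on average in wt naive libraries against 25750 for Jun, and fell with it (log2 change -3.47, edgeR adjusted p = 1.93e-07). The library kit marks strand, per the labels, but the strand setting of the counting is not given in the sources used here, so counts of this pair cannot be told apart with certainty.

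Junb, the JUN protein that partners BATF in T cells, was the most abundant member in naive cells. It was at 712, 958 and 694 CPM in wt naive libraries, at 50.5, 68.1 and 70.0 CPM at 24 h and at 115, 144 and 147 CPM at 48 h. No 2 of these 3 groups overlapped. The fall of 12.5-fold at 24 h (log2 change -3.65, SE 0.24, edgeR adjusted p = 1.92e-09) was partly regained by 48 h, when Junb was 5.81-fold below naive (log2 change -2.54, SE 0.23, edgeR adjusted p = 4.85e-08). The rise from 24 to 48 h was 2.16-fold (log2 change 1.11, SE 0.22, edgeR adjusted p = 0.00524). Without the wt mouse of experiment 1 that rise missed the threshold (edgeR adjusted p = 0.0888). Exons of Prdx2, a peroxidase gene, overlap Junb on the opposite strand. Prdx2 held 3137 counts on average in wt naive libraries against 54567 for Junb, and 9732 against 5139 at 24 h. It rose by 1.42 on the log2 scale at 24 h (edgeR adjusted p = 4.61e-07) and by 1.90 at 48 h (edgeR adjusted p = 9.13e-09). Counts of this pair cannot be told apart with certainty either, nor can those of the pairs of Fosl1 with Ccdc85b and Jund with Gm11175.

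Fosl1, which encodes FRA1, was the 1 FOS gene that rose. In wt it was at 0.864, 1.08 and 0.855 CPM in naive cells, at 5.29, 7.14 and 13.5 CPM at 24 h and at 5.39, 4.41 and 12.9 CPM at 48 h. Every activated library lay above every naive library, and experiment 5 was the highest at both times. The rise was 9.25-fold at 24 h (log2 change 3.21, SE 0.53, edgeR adjusted p = 7.47e-05) and 8.09-fold at 48 h (log2 change 3.02, SE 0.53, edgeR adjusted p = 9.61e-05). Ccdc85b overlaps Fosl1 on the opposite strand. It held 927 counts on average in wt naive libraries against 64.7 for Fosl1, and 973 against 716 at 24 h. The log2 change of Ccdc85b at 24 h was -0.15 (edgeR adjusted p = 0.517).

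Fosl2 and Jund did not pass the test at either time in wt. Fosl2, which encodes FRA2, ranged from 28.1 to 93.1 CPM in naive, 21.4 to 37.5 CPM in 24 h and 28.3 to 69.8 CPM in 48 h libraries, and the groups overlapped. Its log2 change was -0.88 (SE 0.51, edgeR adjusted p = 0.166) at 24 h and -0.23 (SE 0.51, edgeR adjusted p = 0.715) at 48 h. The spread followed the experiment in naive cells: experiment 3 held the highest value in wt (93.1 CPM) and in KI (106 CPM), and experiment 5 the lowest in both (28.1 and 26.7 CPM). Jund, a JUN gene known for steady expression, was at 223 to 283 CPM naive, 181 to 230 CPM at 24 h and 150 to 301 CPM at 48 h. Its log2 change was -0.25 (SE 0.35, edgeR adjusted p = 0.566) at 24 h and -0.14 (SE 0.35, edgeR adjusted p = 0.757) at 48 h. The annotated antisense gene Gm11175 overlaps Jund on the opposite strand and held 7420 counts on average in wt naive libraries against 17054 for Jund.

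Batf and Batf3 were higher at 48 h than in naive cells in wt, Batf by little and Batf3 from a very low level. Batf was at 20.05, 19.3 and 22.1 CPM naive, at 21.9, 26.5 and 21.8 CPM at 24 h and at 32.1, 24.4 and 32.8 CPM at 48 h. The naive and 48 h libraries did not overlap, and those of 24 h overlapped with each. Its log2 change was 0.20 (SE 0.14, edgeR adjusted p = 0.257) at 24 h, and it rose 1.46-fold by 48 h (log2 change 0.54, SE 0.14, edgeR adjusted p = 0.00289). Without the wt mouse of experiment 1 this call was lost (edgeR adjusted p = 0.055). From 24 to 48 h the log2 change of Batf was 0.35 (SE 0.14, edgeR adjusted p = 0.148), short of the threshold.

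Batf3 was at 0.335, 0.341 and 0.333 CPM in wt naive libraries, at 0.0707, 0.317 and 0.231 CPM at 24 h and at 5.22, 3.45 and 2.98 CPM at 48 h. These values rest on 21 to 26, 5 to 27 and 222 to 438 counts per library. The 48 h libraries lay above all others. At 24 h the log2 change against naive was -0.68 (SE 0.65, edgeR adjusted p = 0.403). The gene has 3 exons and lies at chr1:191097847-191108945 (GRCm38, forward strand), and no exon of another gene overlaps it. At 48 h Batf3 was 11.5-fold above naive (log2 change 3.52, SE 0.66, edgeR adjusted p = 0.000183) and 18.5-fold above 24 h (log2 change 4.21, SE 0.68, edgeR adjusted p = 0.00111). The difference between 24 and 48 h missed the threshold without the wt mouse of experiment 1 (edgeR adjusted p = 0.062).

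By count, 4 of the 9 members fell in wt at 24 h (Fos, Fosb, Jun and Junb), where 22% of all tested genes fell, and 1 rose (Fosl1), where 26.3% of all genes rose. At 48 h, 4 fell against a background of 26.8%, and 3 rose (Fosl1, Batf and Batf3) against 29.6%. The shares of members that rose were below (24 h) or near (48 h) that of all genes. The median log2 change of the 9 was -0.88 at 24 h and -0.23 at 48 h, beside -0.05 and -0.04 over all tested genes. From 24 to 48 h, 2 rose (Junb and Batf3) against a background of 4.06%, and 0 fell against 3.38%. In bulk RNA, fewer cells of a type and less RNA per cell cannot be told apart.

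Many markers of other cells, and of CD8 T cells themselves, were also called lower in activated wt cells. At 24 h these were 6 of 8 myeloid, 6 of 6 neutrophil, 4 of 8 B cell, 5 of 8 dendritic and 4 of 5 NK markers, against 22% of all genes. So were 7 of 7 red cell and platelet, 6 of 7 tested stromal, 5 of 8 CD8 T cell and 0 of 4 CD4 T cell markers. Ccl19 of the stromal list did not pass the filter on low counts. One dendritic marker, Zbtb46, rose (log2 change 1.39, edgeR adjusted p = 0.00158), and Eomes of the NK list had a log2 change of 0.58 (edgeR adjusted p = 0.162). The 8 myeloid markers summed to 127 to 283 CPM in wt naive libraries and to 32.2 to 67.1 CPM at 24 h, and the 6 neutrophil markers to 10.7 to 40.2 and 0.0141 to 2.04 CPM. The 8 B cell markers summed to 1211 to 1580 CPM naive and 707 to 1060 CPM at 24 h, and the 8 dendritic cell markers to 666 to 1221 and 146 to 453 CPM. Lyz2, a myeloid marker, ranged from 44.0 to 134 CPM in wt naive libraries and from 0.622 to 8.71 CPM at 24 h. All 8 myeloid and all 6 neutrophil markers had counts in every wt naive library. At 24 h 7 of 8 and 0 of 6 did, and no marker of either list was at 0 in all 3 libraries. The part of these cells in the falls was not tested.

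Against naive cells, 5 of the 9 genes were called in the same direction in KI as in wt at both times, and 6 of the 9 in KO-labelled cells at 48 h. In KI at 24 h, Fos (log2 change -6.22, SE 0.30), Fosb (-3.93, SE 0.47), Jun (-3.74, SE 0.39) and Junb (-3.66, SE 0.24) fell and Fosl1 rose (2.72, SE 0.52). These are 4 of 9 lower, against 15.8% of all genes, and 1 of 9 higher, against 22.9%. In KI at 48 h the same 4 fell (background 22.1%), with log2 changes of -5.69 (Fos), -4.04 (Fosb), -3.595 (Jun) and -2.94 (Junb), and Fosl1 rose by 2.46 (background 26.6%). The largest edgeR adjusted p among these 10 values in KI was 0.000695, for Fosl1 at 48 h. Batf changed by 0.17 (SE 0.14, edgeR adjusted p = 0.32) and Batf3 by 0.82 (SE 0.63, edgeR adjusted p = 0.3) in KI at 48 h, short of the threshold. At 24 h in KI, Batf3 had a log2 change of -1.63 (SE 0.69, edgeR adjusted p = 0.0714), and its naive and 24 h libraries overlapped. It was called there under 5 of 18 alternatives.

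From 24 to 48 h in KI, 0 of 9 members passed the test in either direction, where 1.72% of all genes rose and 0.954% fell. Junb changed by 0.72 (SE 0.22, edgeR adjusted p = 0.0915) and Batf3 by 2.44 (SE 0.69, edgeR adjusted p = 0.0656), and in both the 24 h and 48 h libraries did not overlap. With the experiment as a block Junb passed (edgeR adjusted p = 0.0493), and with the mouse as a block Batf3 passed (edgeR adjusted p = 0.0192). By DESeq2 both did (DESeq2 adjusted p = 0.024 and 0.00645). At an unadjusted p under 0.05, edgeR held Fos, Junb and Batf3.

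In the KO-labelled libraries at 48 h, Fos (log2 change -5.89, SE 0.37), Fosb (-4.90, SE 0.60), Jun (-3.596, SE 0.48) and Junb (-2.75, SE 0.29) fell, 4 of 9 against 20.4% of all genes. Fosl1 (2.78, SE 0.64, edgeR adjusted p = 0.00177) and Batf3 (2.53, SE 0.77, edgeR adjusted p = 0.0125) rose, 2 of 9 against 23.7%. The KO-labelled 48 h library of experiment 1 stood apart from that of experiment 5 in several members. Fosl2 was at 152 CPM in it and 41.2 CPM in the other, Jund at 65.0 and 281 CPM, Fosl1 at 2.89 and 13.02 CPM and Fosb at 1.21 and 4.15 CPM. The 4 CD4 T cell markers summed to 211 CPM in the library of experiment 1 and to 35.6 CPM in the other, and their part in these differences was not tested. Without the library of experiment 1, 5 of 9 members were called, and the rise of Batf3 missed the threshold (log2 change 1.92, edgeR adjusted p = 0.0727). Fitted on the KO-labelled groups alone, the rises of Fosl1 and Batf3 were both short of it (edgeR adjusted p = 0.116 and 0.149).

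**Figure D2:**
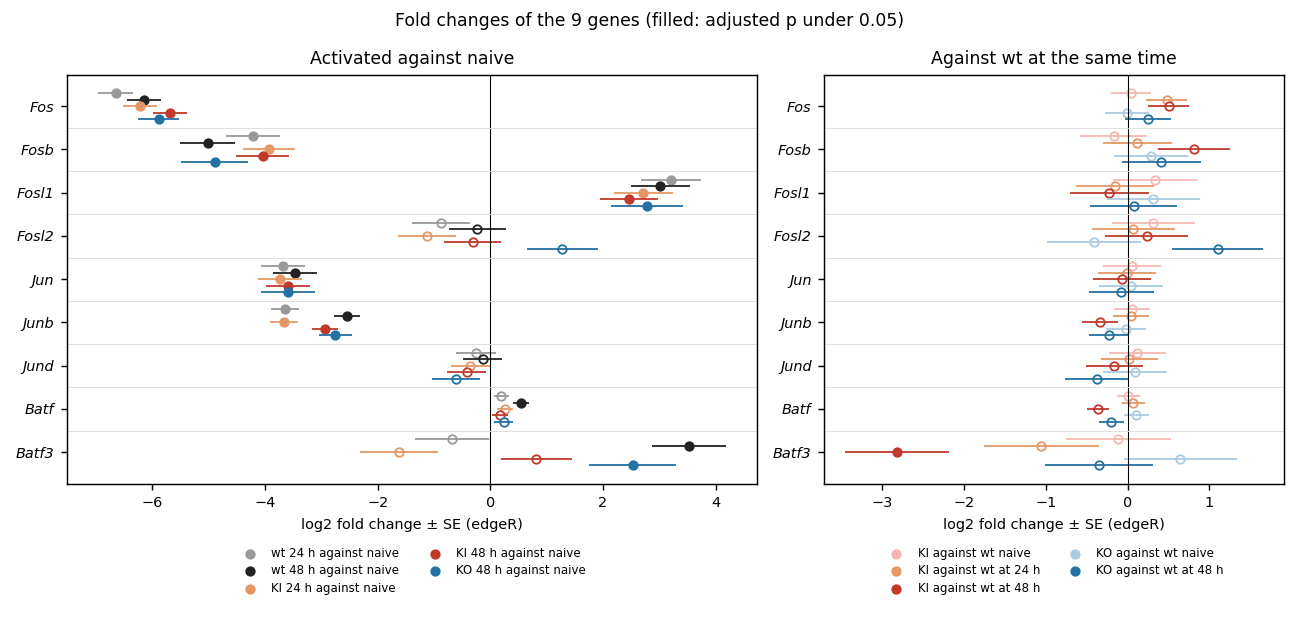
Log2 fold changes with standard errors (horizontal axis) of the 9 genes (vertical axis), from activated against naive cells (left) and from KI or KO-labelled against wt cells at the same time (right). Filled points have an edgeR adjusted p under 0.05: on the left they lie left of 0 for Fos, Fosb, Jun and Junb in all 5 comparisons and right of 0 for Fosl1, and on the right Batf3 in KI at 48 h is the 1 filled point.

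Per length, the JUN genes held about the same share of the family's RNA before and after activation, while the FOS share was lower and the BATF share higher in activated cells. Summed over the 9 genes, FPKM were 972 ± 156 (SD, n = 3) in wt naive, 168 ± 24.2 at 24 h and 232 ± 45.4 at 48 h. The 3 JUN genes held 77.0%, 76.6% and 78.0% of that sum on average. The share of the 4 FOS genes was 20.3% ± 2.03 naive, 6.76% ± 1.85 at 24 h and 5.65% ± 1.55 at 48 h, and that of the 2 BATF genes 2.70% ± 0.513, 16.6% ± 2.70 and 16.4% ± 2.48. Naive and activated libraries did not overlap in either share. The BATF sum itself was 25.7 ± 1.58 FPKM naive and 27.6 ± 3.40 FPKM at 24 h, while the FOS sum was 197 ± 33.3 and 11.6 ± 4.65 FPKM. These shares are descriptions with no test, and FPKM rest on the gene lengths the authors used.

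Within the families the order changed. Jund, below Junb, Fos and Jun in wt naive cells, was highest at 24 h at 80.3 ± 9.22 FPKM, above the range of Junb at 38.2 ± 6.46 FPKM. Batf came next at 27.4 ± 3.34 FPKM and overlapped with Junb. Jun followed at 10.1 ± 4.91 FPKM, then Fosl1 (5.65 ± 2.76) and Fosl2 (3.33 ± 0.912), each overlapping with the next. Fos (1.57 ± 0.613), Fosb (1.05 ± 0.416) and Batf3 (0.145 ± 0.0884) came last. At 48 h Jund (87.3 ± 29.7 FPKM) and Junb (82.4 ± 10.4 FPKM) overlapped, Batf stood at 34.9 ± 5.64 FPKM, and Fosl1 (4.96 ± 3.06) exceeded Fos (2.24 ± 0.573) with no overlap.

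**Figure D3:**
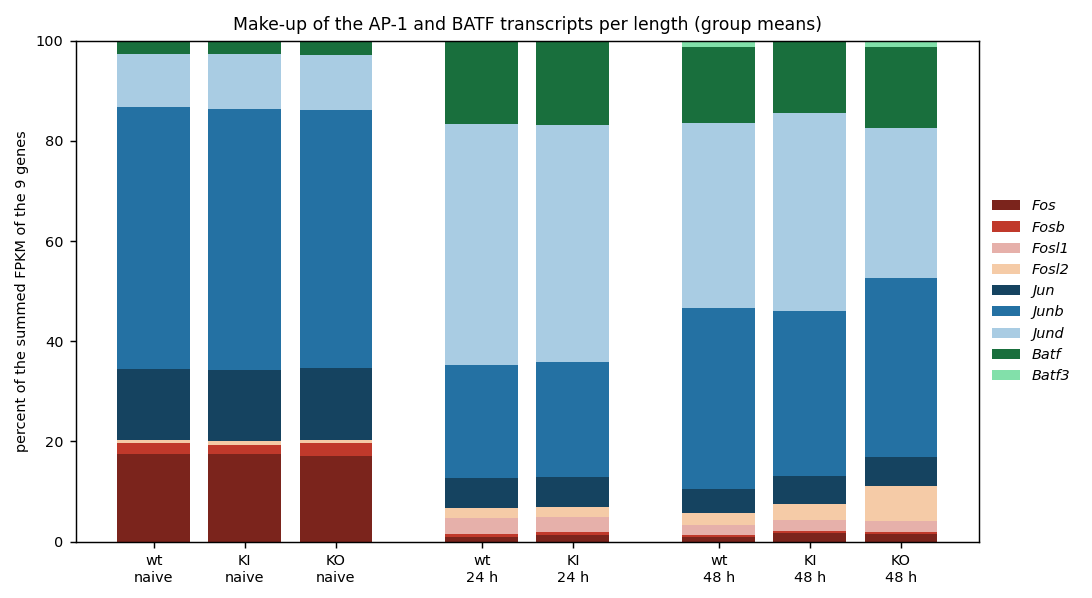
Mean percent of the summed FPKM of the 9 genes (vertical axis) that each gene holds, by group (horizontal axis), with FOS genes in reds, JUN genes in blues and BATF genes in greens. The FOS share in wt is 20.3% naive and 6.76% at 24 h, and the BATF share 2.70% and 16.6%.

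Between KI and wt cells at the same time, Batf3 at 48 h was the 1 member that passed the test. KI 48 h libraries of experiments 1, 3 and 5 held 0.350, 0.398 and 0.896 CPM of Batf3 (24, 29 and 64 counts), against 5.22, 3.45 and 2.98 CPM in wt. The groups did not overlap, and KI was lower in 3 of 3 experiments, with log2 differences of -3.80, -3.03 and -1.70. Batf3 was 7.06-fold lower in KI (log2 change -2.82, SE 0.63, edgeR adjusted p = 0.0165). This is 1 of 9 members against a background of 4.2% of all genes in either direction. Leaving out either the KI or the wt mouse of experiment 1, or the KI mouse of experiment 3, kept the size (-2.58, -2.55 and -2.63) and lost the call (edgeR adjusted p = 0.0956, 0.101 and 0.125).

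Batf3 is also known as a gene of dendritic cells, whose 8 markers summed to 177 to 457 CPM in wt and 288 to 691 CPM in KI at 48 h, ranges that overlapped. Most of that sum is Cd74, H2-Aa and H2-Ab1, which B cells express too; mean Flt3 was 0.439 CPM in wt and 0.328 in KI, and mean Zbtb46 7.72 and 7.68 CPM. Xcr1, which marks the dendritic cells that need BATF3, was at 0.126 to 1.46 CPM in wt and 1.11 to 1.33 CPM in KI. The 8 stromal and endothelial markers summed to 86.4 to 92.2 CPM in wt and 146 to 196.4 CPM in KI, nearly all of it Pecam1 (86.3 to 91.6 and 146 to 195 CPM), and 5 of the 8 (Col1a2, Col3a1, Dcn, Ccl19 and Lyve1) were at 0 in all wt 48 h libraries. Their part in the difference was not tested.

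The difference in Batf3 at earlier times did not pass the test. At 24 h KI libraries held 0.0410, 0.140 and 0.112 CPM and wt libraries 0.0707, 0.317 and 0.231 CPM, lower in KI in 3 of 3 experiments (log2 change -1.05, SE 0.70, edgeR adjusted p = 0.693), from 3 to 27 counts a library. In naive cells KI libraries held 0.0741, 0.347 and 0.508 CPM (log2 change -0.11, SE 0.64, edgeR adjusted p = 1). The difference between KI and wt in the change from naive to 48 h missed the threshold (log2 difference -2.71, SE 0.89, edgeR adjusted p = 0.252). In KO-labelled 48 h libraries Batf3 was at 4.10 and 2.00 CPM (log2 change against wt -0.35, SE 0.66, edgeR adjusted p = 0.906).

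**Figure D4:**
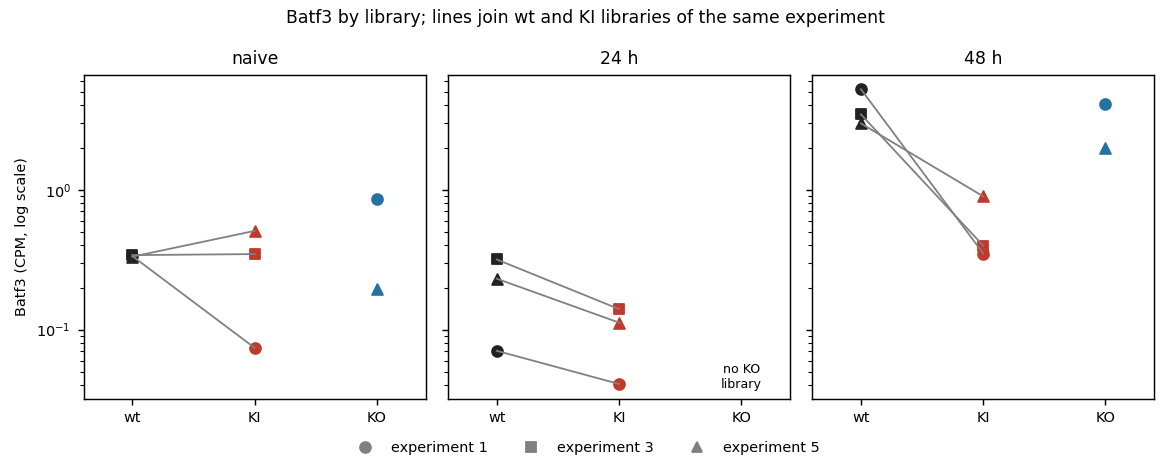
CPM of Batf3 (vertical axis, log scale) in wt, KI and KO-labelled libraries (horizontal axis) of naive cells, 24 h and 48 h, with lines joining the wt and KI libraries of the same experiment. At 48 h all 3 lines go down from wt to KI, from 2.98 to 5.22 CPM to 0.350 to 0.896 CPM.

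The other 8 members did not pass the test between KI and wt at 48 h. Batf came nearest by p, at 21.4, 21.6 and 26.5 CPM in KI against 32.1, 24.4 and 32.8 CPM in wt (log2 change -0.36, SE 0.14, edgeR adjusted p = 0.164). KI was lower in 3 of 3 experiments and the groups overlapped, and the call was made without the wt mouse of experiment 3 (edgeR adjusted p = 0.0466). Fosb was at 3.06, 3.19 and 4.44 CPM in KI against 1.38, 1.51 and 3.20 CPM in wt (log2 change 0.81, SE 0.43, edgeR adjusted p = 0.346), and Fos had a log2 change of 0.50 (SE 0.25, edgeR adjusted p = 0.304). Junb was at 88.0, 88.8 and 144 CPM in KI against 115, 144 and 147 CPM in wt (log2 change -0.34, SE 0.22, edgeR adjusted p = 0.455).

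In naive cells 0 of 9 members passed between KI and wt, where 0.0803% of all genes did, and the log2 changes ran from -0.17 (Fosb) to 0.34 (Fosl1). At 24 h 0 of 9 passed against 0.00472%, and the values ran from -1.05 (Batf3) to 0.48 (Fos, SE 0.25). At an unadjusted p under 0.05 edgeR held 0 of 9 at both times, and DESeq2 called 0 of 9. Between KO-labelled and wt cells 0 of 9 passed naive (background 0.0236%) and 0 of 9 at 48 h (background 0.0283%). At 48 h Fosl2 had the largest difference (log2 change 1.10, SE 0.56, edgeR adjusted p = 0.731), with 1 of 2 KO-labelled libraries above the wt range.

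None of the 9 passed the test of a difference in course, for KI from naive to 24 h (background 0%), KI from naive to 48 h (0.387%), KI from 24 to 48 h (0.00472%) or KO-labelled cells from naive to 48 h (0%). At an unadjusted p under 0.05, edgeR held 1 of 9 (Batf3) for KI from naive to 48 h, 1 of 9 (Batf) for KI from 24 to 48 h, and 0 of 9 in the other two.

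Fos and Batf are neighbours. Both lie on the forward strand of chromosome 12, Fos at chr12:85473890-85477273 and Batf at chr12:85686669-85709087 in GRCm38. Batf starts 209396 bases after the end of Fos, and 1 gene of the deposited normalized values lies between them, Jdp2, which encodes a repressor that dimerises with JUN. In wt at 24 h Fos had a log2 change of -6.65, Jdp2 rose by 1.86 (edgeR adjusted p = 0.0212) and Batf had a log2 change of 0.20. At 48 h Jdp2 was up by 3.53 (edgeR adjusted p = 0.000184), from 0.547 to 6.32 CPM.

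Over the 8 group means of log2 CPM, members fell into patterns that share the naive libraries as their main contrast. Fos correlated with Jun (r = 0.998), Fosb (0.983) and Junb (0.982) and negatively with Fosl1 (-0.997), while Fosl2 (0.2) and Batf3 (-0.237) had little in common with it. These are descriptions over 8 points with shared libraries. Among 14735 genes with a mean of at least 1 CPM, the genes most like each member were found the same way. Fos was closest to Tifab (0.9986), Jun (0.998) and Snhg8 (0.9979), Fosb to Cma1 (0.9977), Nav1 (0.9975) and Dnajb9 (0.9971), and Jun to Junos (0.9992), C1qa (0.9981) and Tulp2 (0.9981). C1qa is a macrophage gene and Cma1 a mast cell gene. Junb was closest to Brd1 (0.9946), Cpt1a (0.9945) and Lrp1 (0.9936), Jund to Gm11175 (0.9864), Icam1 (0.9836) and Rab5c (0.9776), and Fosl1 to Utf1 (0.9982), Enkd1 (0.9981) and Bspry (0.998). Fosl2 was closest to Bcr (0.9572), Snx18 (0.9562) and Ric1 (0.9473), Batf to Arf5 (0.9844), Gm37981 (0.9765) and Ifi205 (0.9763), and Batf3 to Alpk2 (0.9941), Ifng (0.9838) and Kansl2 (0.9781).

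Other genes of the pathway are given by list, with log2 changes, and every gene named as risen or fallen passed the same edgeR test. The first list has 27 genes taken as immediate early genes in a broad sense and holds none of the 9. It includes Klf2, Btg1, Zfp36l2, Hspa1a and Socs3, and whether each is induced early in CD8+ T cells was not tested. Of all tested genes, 22% fell and 26.3% rose at 24 h, 26.8% fell and 29.6% rose at 48 h, and 4.2% differed between KI and wt at 48 h. In the first list, 18 of 27 fell and 4 rose in wt at 24 h, with a median log2 change of -1.66. At 48 h 16 fell and 6 rose, with a median of -1.56. The shares that fell were above those of all genes and the shares that rose below. Ppp1r15a, a stress response phosphatase subunit, fell (-4.26 at 24 h and -3.80 at 48 h), as did the zinc finger factors Klf4 (-4.37) and Klf6 (-2.85) at 24 h. Nr4a3, an orphan receptor induced by the T cell receptor, rose by 3.01 and 5.24, Myc by 0.64 and 1.03, Egr3 by 1.92 at 24 h and Nr4a2 by 2.197 at 48 h. Klf2 (-4.73) and Zfp36l2 (-2.74) fell at 48 h. Between KI and wt at 48 h, 3 of 27 were higher (Klf2 by 1.58, Btg2 by 0.74 and Zfp36l1 by 0.66) and 2 lower (Nr4a3 at -1.27 and Gadd45b at -1.09).

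Of 14 partners that bind DNA with AP-1 or BATF or act beside them, 5 rose and 4 fell in wt at 24 h, and 7 rose and 3 fell at 48 h (medians 0.36 and 0.64), against 26.3% and 22% of all genes at 24 h and 29.6% and 26.8% at 48 h. Irf4, the BATF partner, rose by 3.30 (from 40.5 to 400 CPM) and 3.03, Nfkb1 by 0.90 and 0.92, Irf8 by 2.63 at 24 h and Rel by 1.53 at 48 h. Runx1 (-2.01 and -1.82), Ets1 (-1.05 and -1.22) and Nfatc2 (-0.65 and -0.69) fell. In KI at 48 h 1 of 14 differed from wt, against 4.2% of all genes. Runx1 was higher by 1.01 (edgeR adjusted p = 0.00747).

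Of 27 other basic leucine zipper factors, 7 rose and 12 fell at 24 h, and 9 rose and 9 fell at 48 h (medians -0.33 and 0.20). Against 26.3% and 22% of all genes at 24 h and 29.6% and 26.8% at 48 h, the share that fell at 24 h was higher and the others were near. Mafg rose by 0.98 and 1.43, Batf2 by 1.205 and Bach2 by 0.75 at 24 h, and Crem and Cebpg by 2.52 and 1.18 at 48 h. Mafk (-1.85 and -1.57), Cebpb at 24 h (-1.88) and Bach1 at 48 h (-1.35) fell. Bach1, which competes for AP-1-like sites, was higher in KI than in wt at 48 h by 0.96 (edgeR adjusted p = 0.0231), the 1 of 27 that differed, a share near the 4.2% of all genes.

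Of 27 genes of the MAP kinase and protein kinase C routes to AP-1, 3 rose and 8 fell at 24 h, and 5 rose and 10 fell at 48 h (medians -0.10 and -0.25). The shares that rose were below the 26.3% and 29.6% of all genes, and those that fell were above 22% and 26.8%. Map2k2 and Map2k4 rose by 0.39 and 0.40 at 24 h, and Map3k8 and Map2k1 by 1.55 and 0.58 at 48 h. Prkcq, the T cell protein kinase C, fell (-0.89 and -1.38), as did Mapk14 (p38; -0.42 and -0.86) and, at 48 h, Araf (-0.83). In KI at 48 h Mapk14 (0.34) and Prkcq (0.52) were higher and Map3k8 (-0.93) lower than in wt, 3 of 27 against 4.2% of all genes. Of 12 genes that end AP-1 activity, 1 rose and 4 fell at 24 h, and 3 rose and 6 fell at 48 h (medians -0.38 and -0.45), against 26.3% and 22% of all genes at 24 h and 29.6% and 26.8% at 48 h. The MAP kinase phosphatase genes Dusp1 (-4.61 and -4.71), Dusp2 (-1.42 and -2.18) and, at 48 h, Dusp10 (-1.48) fell, as did Itch at 24 h (-0.60), a ligase that marks JUN proteins for decay. Its adaptor Ndfip1 rose by 0.62 and 0.87, and Dusp4 and Ndfip2 by 2.63 and 0.29 at 48 h, and 0 of 12 differed between KI and wt at 48 h.

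Of 20 genes known as targets of AP-1 or BATF in T cells, 9 rose and 3 fell in wt at 24 h, and 16 rose and 4 fell at 48 h (medians 1.89 and 3.40). Of all genes 26.3% rose and 22% fell at 24 h, and 29.6% and 26.8% at 48 h, so the shares of targets that fell were below those of all genes. Il2ra, the high-affinity IL-2 receptor chain, rose by 4.76 and 6.44, Tnfrsf9 (4-1BB) by 4.72 and 5.64, and Pdcd1 (PD-1) by 4.61 and 4.74. Hmox1 (-3.16 and -2.26), Ccnd1 (-2.00 and -2.74) and Prdm1 (-2.99 and -2.11) fell, from 3.68 to 17.9 CPM in naive cells. Between KI and wt at 48 h 0 of 20 passed the test, with a median of -0.07. The medians of all tested genes in these comparisons were -0.05, -0.04 and 5.22e-05.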

How the data were processed

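Per the submitters' processing notes, the tools were bcl2fastq 2.20.0, TopHat2 2.1.0, Bowtie2 2.2.5, SAMtools 0.1.19, featureCounts and DESeq2 1.6.3, with the genome builds GRCm38 and mm10; the strand setting is not given in the sources used here. The authors deposited counts per gene, log2 normalized counts, variance-stabilised log2 values and FPKM. The deposited FPKM equal the normalized counts over 1 constant per gene. The 9 members and all gene lists were chosen with earlier results of these data known.

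Counts were tested with edgeR 4.0.16 (R 4.3.3): TMM factors, genes kept by filterByExpr (count of 10, total of 15), 8 group means, quasi-likelihood tests with 14 residual degrees of freedom and Benjamini-Hochberg adjustment over 21183 genes, called at an adjusted p under 0.05. The script was tested on simulated data. Named genes were all members, the 3 called genes of smallest p per list and direction, and the 3 genes most like each member. Some genes that this rule names are not reported here. Per the labels the replicate number is a shared experiment, which pairs the samples. Same-experiment KI and wt libraries deviated together (median r 0.22 over 9 pairs, 8 above 0.1). The 18 other pairs (median r -0.178) are no separate baseline, since deviations from a group mean cancel within the group. In wt and KI, mice of the same experiment also share their sex. Replicate libraries differed by more than sampling noise (chi-square over its degrees of freedom at least 15.4). Alternatives were other scalings, no filter, DESeq2 1.42.0, limma 3.58.1 on the deposited variance-stabilised log2 values, blocks and left-out mice.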

Additional observations from a re-analysis of the deposited data

How the results depend on the processing

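Over 16 comparisons and the 9 members, 2514 values under alternatives kept their direction and their side of the threshold or had no call to lose, 22 passed newly, 11 no longer passed and 0 called values changed sign. The calls of Fos, Fosb, Jun and Junb in all 5 comparisons with naive cells held under each of the 18 alternatives, as did Fosl1 in wt and KI. Upper-quartile scaling moved the median log2 change of all genes from -0.05 to -0.23 (wt 24 h), -0.04 to -0.26 (wt 48 h), 0.01 to -0.16 (KI 24 h), -0.02 to -0.20 (KI 48 h) and 0.01 to -0.17 (KO-labelled 48 h). The share of higher calls went from 54.5 to 42.5%, 52.5 to 41.7%, 59.2 to 44.9%, 54.6 to 42.9% and 53.7 to 43.1%.

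For KI from 24 to 48 h, 0 members were called, against 2 by DESeq2, 2 with the compared groups alone, 1 with the experiment as a replicate block, 1 with the mouse as a block and 1 without the KO-labelled 48 h library of experiment 1; the last 2 were chosen after seeing the data. The block on the experiment changed no other count of members called. Leaving out each mouse gave 5 members called for wt 24 h, 6 to 7 for wt 48 h, 0 to 3 for wt 48 against 24 h, 5 to 6 for KI 24 h, 5 for KI 48 h, 0 to 1 for KI 48 against 24 h, 5 to 6 for KO-labelled 48 h, 0 to 2 for KI against wt at 48 h, 0 to 2 for KO-labelled against wt at 48 h and 0 to 1 for the KO difference in course. For wt 48 against 24 h the 0 came without the wt mouse of experiment 1. The 2 for KO-labelled against wt at 48 h (Fosl2 and Jund) came without the KO mouse of experiment 5, which leaves 1 library assumed to vary like the other groups. The cause was not tested.

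Counts over all genes moved by more than 1.5 times in several comparisons. For KI against wt at 48 h, 889 genes became 1714 by DESeq2, 109 with the groups alone and 89 to 1746 without 1 mouse. For wt 48 against 24 h, 1578 became 2465, 373 and 133 to 2574, and for KI 48 against 24 h, 567 became 1256, 1301 and 0 to 1180. For KO-labelled 48 h against naive, 9326 became 1373 with the groups alone. For KI against wt naive, 17 became 58 by DESeq2, 79 with the groups alone, 37 unfiltered, 31 by limma and 3 to 51 without 1 mouse, and at 24 h 1 became 56 by DESeq2. KO-labelled against wt had 5 naive (11 by DESeq2) and 6 at 48 h (29 by DESeq2, 0 with the groups alone, 4 to 4770 without 1 mouse). The KI difference in course from naive to 48 h had 82 (360 by DESeq2, 138 with the groups alone, 187 with the mouse as a block).

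Depth limits Batf3 most: naive and 24 h libraries hold 3 to 71 of its counts. The p-values rest on the spread between libraries within groups, pooled over all groups of the 3 experiments. The main fit leaves out that libraries of different times share a mouse. Such libraries deviated together (median r 0.155 over 20 pairs, 19 above 0.1). They also share their experiment, so this value does not set the mouse apart from the experiment.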
